A study of Mus musculus with 6 samples.

Results

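Oxidative phosphorylation is described here for 102 genes, chosen from the 38561 rows of the deposited count table by symbol alone. Taken were symbols that begin with Nduf, Uqcr, Cox4 to Cox8 or Atp5, or with mt-Nd, mt-Co, mt-Cytb or mt-Atp; of 103 matches, 1 pseudogene symbol was dropped. The members comprise 82 nuclear subunit genes (38 of complex I, 8 of complex III, 18 of complex IV and 18 of complex V), the 13 protein-coding genes of the mitochondrial genome and 7 assembly factors of complex I. The symbols also take in Atp5s and Atp5sl, which carry the Atp5 name without being structural subunits, and Atp5l2, which GENCODE M21 annotates as a processed pseudogene. Ndufa4 and Ndufa4l2 were kept with complex I by name, although the Ndufa4 protein is found with complex IV.

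The samples were undifferentiated mouse embryonic stem cells (ESCs) at passages 13 to 17, of 129X1/SvJ x 129S1/Sv background and grown without feeders in serum replacement with leukemia inhibitory factor. Flow cytometry on PECAM1, an adhesion molecule of undifferentiated ESCs, and PDGFRa, a growth factor receptor of primitive endoderm, gave 3 fractions: PDGFRa-only (PECAM1minPDGFRaplus), PECAM1-only (PECAM1plusPDGFRamin) and double-positive (PECAM1plusPDGFRaplus). Each fraction has 2 libraries, named Exp1 and Exp2 in the labels and replicates 1 and 2 here, made from amplified RNA of 100000 sorted events. No fraction carries a genetic change or a further treatment according to the labels, which do not say whether the numbers are separate cultures or sorts, so a p measures only the spread between these libraries.

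Library totals ran from 4809661 to 7273669 counts. Levels are in CPM, counts relative to the TMM-scaled library size. The summed level of 6 primitive endoderm markers (Gata6, Gata4, Sox17, Sox7, Pdgfra and Dab2) was 4496 and 4702 CPM in PDGFRa-only, 3376 and 3533 in double-positive and 15.5 and 18.6 in PECAM1-only, and that of 6 pluripotency markers (Pou5f1, Sox2, Nanog, Esrrb, Zfp42 and Pecam1) ran from 108 to 150, from 325 to 410 and from 1020 to 1068 CPM. Both lists matched the sort labels, in part by design, since they hold the sort markers Pdgfra and Pecam1. Of the 6 pluripotency markers Pou5f1 differed least in fold, with 96.7 and 56.3 CPM in PDGFRa-only and 143 and 132 in PECAM1-only. The lists of 6 fibroblast, 6 trophoblast and 6 endothelial or blood markers each summed to at most 7.53 CPM in any library. Levels are of sorted cells in bulk, so fewer cells of a type and less RNA per cell cannot be told apart.

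The respiratory chain passes electrons from NADH (complex I) through ubiquinol and cytochrome c (complex III) to oxygen (complex IV), pumping protons that drive the ATP synthase (complex V). Its complexes combine a catalytic core, partly encoded in the mitochondrial genome, with many small nuclear-encoded supernumerary subunits, and some of the latter have isoform genes that are used in particular tissues or in male germ cells. Undifferentiated ESCs are known for active glycolysis beside respiration, and the balance between them shifts as cells leave pluripotency.

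Some members share sequence with copies elsewhere in the genome, which makes their levels uncertain. Every 50-base stretch of each member's transcript was looked up in all other annotated transcripts (GENCODE M21, GRCm38). Of the 13 mitochondrial genes, mt-Co2, mt-Co3, mt-Atp6, mt-Nd4l and mt-Nd3 shared 98.0% to 100.0% of their 50-base stretches with pseudogenes in a 4663-base block of chromosome 1 (chr1:24611535-24616197, minus strand), a nuclear copy of mitochondrial DNA. These 5 genes had 0 to 2 counts in all 6 libraries together, while mt-Cytb, mt-Nd1 and mt-Nd6, which shared 0.0%, had 66964, 42615 and 5000. The first 60 bases of mt-Nd3 (0 counts) and of its copy Gm28438 are shown because they contain the 1 base that differs over the 345 aligned bases, written in capitals (T3C, counted from the first base of the transcript):
mt-Nd3: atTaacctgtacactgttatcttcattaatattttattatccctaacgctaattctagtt
Gm28438: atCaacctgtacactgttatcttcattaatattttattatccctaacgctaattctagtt
The copies of mt-Co2 (681 aligned bases), mt-Co3 (783), mt-Atp6 (678) and mt-Nd4l (294) were identical to the mitochondrial genes over their whole length. Their reads match more than one place in this genome. How the authors treated them is not given in the sources used here, and its part in these counts was not tested. mt-Atp8 had 0 counts but shared no 50-base stretch with an annotated transcript. It lies at chrM:7766-7969, which takes in most of the 230 bases between mt-Co2 and mt-Atp6, and the annotated copies of those genes on chromosome 1 are likewise 233 bases apart (chr1:24614652-24614884), a stretch not analysed here. For mt-Nd4 (62.2% shared) and mt-Co1 (51.1%) part of the transcript is copied as well, so their levels are uncertain against those of the others.

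**Figure D1:**
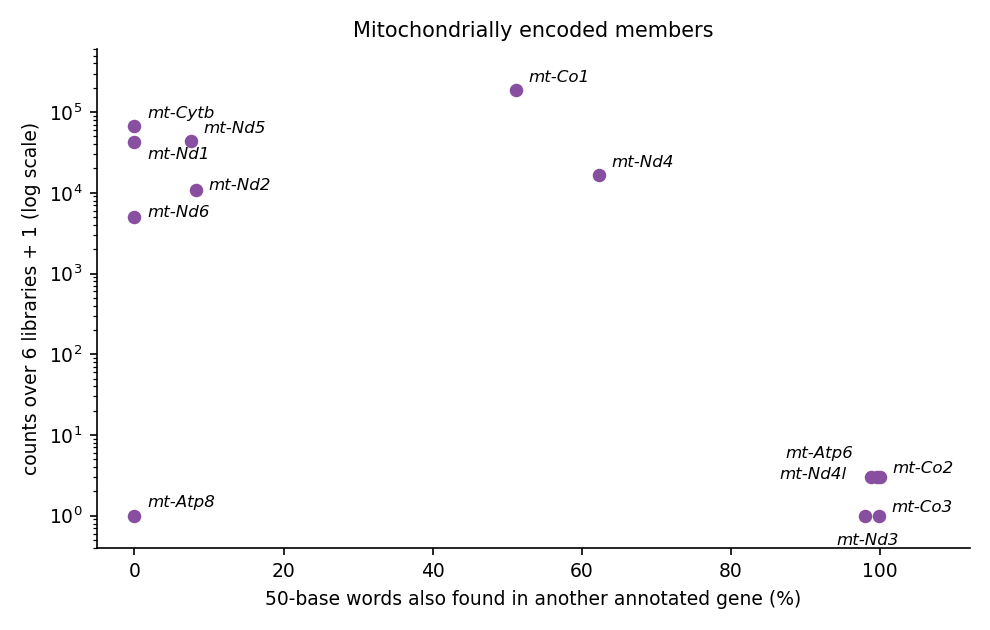
Counts of the 13 mitochondrially encoded members summed over 6 libraries, plus 1 (log scale), against the percentage of their 50-base stretches found in another annotated gene. The 5 genes at 98.0% or more lie at 0 to 2 counts, as does mt-Atp8 at 0.0%; the other 7 lie between 5000 and 187663.

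Nuclear members have copies as well. Among the 89 nuclear-encoded members, assembly factors included, 48 shared at least one 50-base stretch with another gene and 31 shared over 10%. Ndufs5, an iron-sulfur fraction subunit of complex I, had 1 count in all, while the row of its copy BC002163 (41.2% of the 50-base stretches) had 453. Atp5g2, one of 3 genes for the same mature subunit c of the ATP synthase, was wholly shared and had 31 counts. Cox7c had 575 counts against 1008 in its pseudogene row Gm12338, and Ndufa12 had 210 against 592 in Gm15920. Reads of these 4 genes could have been split or lost between such rows, so their levels are uncertain, and Ndufs5 and Atp5g2 were not among the genes tested.

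After a filter on low counts 89 of the 102 members were tested, among 13909 genes: 75 of 82 nuclear subunits, 7 of 13 mitochondrial genes and all 7 assembly factors. The 13 left out had 0 to 33 counts in all. Apart from the 6 mitochondrial genes, Ndufs5, Atp5g2 and Atp5l2 (1 count), they were isoform genes of complex IV: Cox6a2, a heart and skeletal muscle form, had 0 counts, and Cox8b, also a muscle form, 6. Cox4i2, the lung form of subunit 4, had 33 counts with 5 to 8 in each library, and the testis form Cox8c had 11, described with the isoforms.

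Ranked by level per kilobase of transcript (CPM per kb, mean of 6 libraries), mt-Co1, the catalytic subunit of complex IV, came first with 3244. Atp5b, the catalytic beta subunit of the ATP synthase, followed with 1943, then mt-Cytb with 1617, mt-Nd1 with 1217 and mt-Nd5 with 642. Atp5a1, which alternates with Atp5b in the F1 head, was at 299. The highest nuclear members after Atp5b were Cox4i1 with 444 and Atp5g3 with 334. Median levels of the tested nuclear subunits were 46.4 CPM per kb in complex I, 68.3 in complex III, 70.3 in complex IV and 63.6 in complex V, and the complex I assembly factors were lower with 10.5. The 5 tested mitochondrial genes of complex I spanned 260 to 1217 CPM per kb.

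Small nuclear subunits of every complex were higher in PDGFRa-only than in PECAM1-only cells. Of 89 tested members, 47 were called higher (52.8%) and 5 lower at an adjusted p below 0.05, beside 30.1% of all 13909 genes called higher and 28.8% called lower (59% called in all). The share of members called in either direction, 58.4%, was near the background, and most calls were in one direction: the median log2 fold change was 0.49 over the members and 0.01 over all genes. By complex the counts were 17 higher and 1 lower of 37 in complex I, 6 and 0 of 8 in complex III, 10 and 2 of 14 in complex IV and 9 and 1 of 16 in complex V, with medians of 0.44, 0.74, 0.58 and 0.72. Of the 7 complex I assembly factors, Ndufaf7 rose (log2 fold change 0.74 ± 0.27 SE, adjusted p = 0.0226) and Ndufaf4 fell (log2 fold change -0.77 ± 0.26 SE, adjusted p = 0.0157). With libraries scaled by size alone, 28 members were called higher and 9 lower, and the median was 0.20 over the members and -0.28 over all genes. Without the members that share over 10% of their 50-base stretches, 31 of 59 were called higher.

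Complex I genes called higher were mostly supernumerary subunits. Of 30 tested supernumerary genes 16 were called higher and 1 lower, with a median log2 fold change of 0.66, and of the 7 core genes, which carry the flavin and the iron-sulfur clusters, 1 was called higher and 5 had a positive value, with a median of 0.24. The supernumerary genes include, by name alone, Ndufa4 (called higher) and Ndufa4l2 (the 1 called lower). The difference between core and supernumerary genes was not tested. Ndufa5 was at 27.1 and 12.2 CPM in PDGFRa-only, 10.8 and 9.83 in double-positive and 4.50 and 6.72 in PECAM1-only, a log2 fold change between the first and the last of 1.78 ± 0.34 SE, adjusted p = 1.35e-04. Its 2 PDGFRa-only libraries lay far apart, yet both were above every other library. Ndufa3, a membrane-arm subunit, was at 49.9 and 33.9 CPM against 17.1 and 16.7 and 10.6 and 16.3 (log2 fold change 1.63 ± 0.24 SE, adjusted p = 7.47e-06). Ndufa8 followed with 43.4 and 30.7 against 23.7 and 20.4 and 16.5 and 11.3 CPM (log2 fold change 1.40 ± 0.24 SE, adjusted p = 3.77e-05). Among the core genes only Ndufs7, which carries the last iron-sulfur cluster before ubiquinone, passed the test, with 60.2 and 50.2 CPM in PDGFRa-only and 30.5 and 33.9 in PECAM1-only (log2 fold change 0.77 ± 0.19 SE, adjusted p = 0.00120). The values of the largest core subunit Ndufs1 were 101 and 152, 137 and 149 and 151 and 135 CPM in the same order of fractions and overlapped.

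In complex III the small subunits Uqcrq, Uqcr11, Uqcrh and Uqcr10 rose by 0.98 to 1.36 on the log2 scale. Uqcrq, a subunit next to cytochrome b, was at 146 and 117 CPM in PDGFRa-only, 65.7 and 72.7 in double-positive and 41.1 and 61.5 in PECAM1-only (log2 fold change 1.36 ± 0.19 SE, adjusted p = 4.15e-06). The Rieske iron-sulfur protein gene Uqcrfs1 (log2 fold change 0.49 ± 0.16 SE, adjusted p = 0.0147) and the core protein gene Uqcrc2 (log2 fold change 0.41 ± 0.16 SE, adjusted p = 0.0278) rose less. The other core protein gene, Uqcrc1, was at 131 and 102 and 104 and 115 CPM and did not pass. Cyc1, the cytochrome c1 of the same complex and no member by name, was at a mean of 180 CPM in PDGFRa-only and 168 in PECAM1-only (log2 fold change 0.10 ± 0.17 SE, adjusted p = 0.644).

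In complex IV Cox6b1 had the largest rise of any tested member. This subunit, which bridges the monomers of the enzyme, was at 113 and 79.7 CPM in PDGFRa-only, 56.2 and 50.2 in double-positive and 20.2 and 32.2 in PECAM1-only (log2 fold change 1.88 ± 0.22 SE, adjusted p = 3.32e-07). Its 3 fractions did not overlap, and it was called in each of the 3 comparisons. The same held for Cox7a2, at 80.4 and 74.6, 46.1 and 42.8 and 26.4 and 29.7 CPM (log2 fold change 1.46 ± 0.18 SE, adjusted p = 5.65e-07), and for Cox6a1, at 212 and 203, 126 and 131 and 63.1 and 87.9 CPM (log2 fold change 1.46 ± 0.17 SE, adjusted p = 3.08e-07). Cox8a, Cox5b, Cox6c, Cox4i1, Cox7a2l, Cox7b and Cox5a were also called higher, by 1.18 to 0.43 on the log2 scale. With library size alone, the calls of Cox4i1, Cox7a2l and Cox7b were lost, at 0.31, 0.28 and 0.20.

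In complex V the small membrane subunit Atp5k rose most, from 12.5 and 13.6 CPM in PECAM1-only to 35.4 and 25.5 in PDGFRa-only (log2 fold change 1.21 ± 0.23 SE, adjusted p = 1.28e-04), followed by the F1 epsilon subunit Atp5e with 49.6 and 66.3 and 129 and 108 CPM (log2 fold change 1.03 ± 0.18 SE, adjusted p = 4.87e-05). Atp5g3, with the most counts of the subunit c genes, was at 351 and 289 CPM against 186 and 185 (log2 fold change 0.79 ± 0.16 SE, adjusted p = 2.25e-04). It shared 0.0% of its 50-base stretches with other genes, against 66.0% for Atp5g1 and 100.0% for Atp5g2. The order of the subunit c genes by level is therefore uncertain. The F1 head genes went other ways: Atp5a1 was at 796 and 774 and 734 and 775 CPM and did not pass. Atp5b was called lower (log2 fold change -0.53 ± 0.22 SE, adjusted p = 0.0470), at 2027 and 3943 CPM in PDGFRa-only, 3739 and 3975 in double-positive and 4196 and 4452 in PECAM1-only. The size of this fall rests on PDGFRa-only replicate 1: the value was -0.12 without it. The call was also lost, at a similar size, without PECAM1-only replicate 1 or 2 (-0.56 and -0.49). The same held without double-positive replicate 1 or 2 (-0.52 and -0.53) and with only the 2 fractions compared (-0.56).

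**Figure D2:**
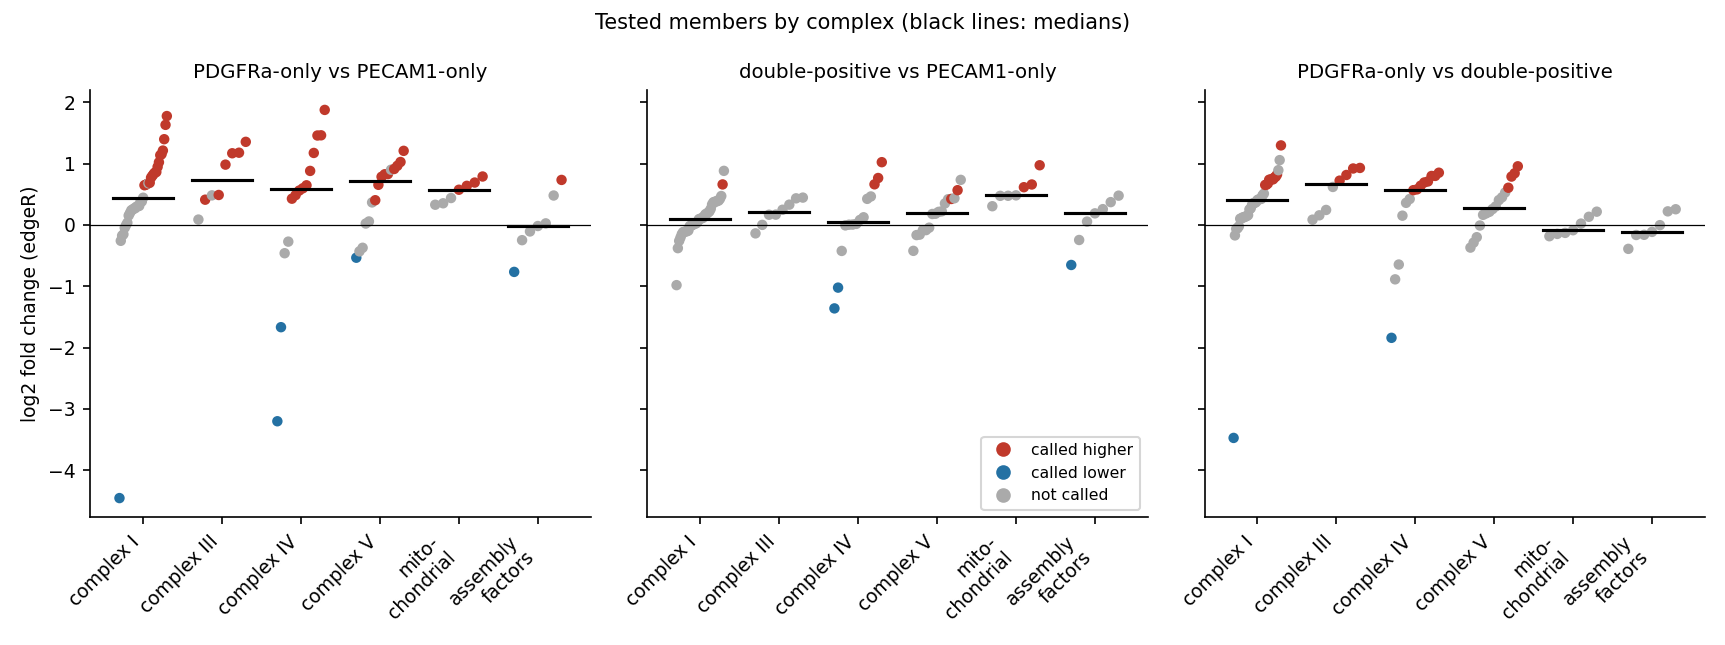
Log2 fold change (edgeR) of the 89 tested members in 3 comparisons, grouped by complex for nuclear subunits, with the mitochondrially encoded genes and the complex I assembly factors apart; each point is 1 gene, coloured by call, and black lines are medians. In PDGFRa-only against PECAM1-only 47 points were called higher and 5 lower, and the 3 lowest points are Ndufa4l2, Cox7b2 and Cox6b2.

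The promoters of the nuclear members at both ends of this comparison are shown because these genes moved farthest. They are 300-base windows, 250 before and 50 after the start of the first transcript listed by RefSeq (build GRCm38.p6), given on the strand of the gene; 70 of the 102 members matched the table. Both strands were searched for 3 motifs, with matches in capitals: GCGCANGCG for NRF1, CCGGAAG for the ETS factor GABPA and AAGATGG for YY1. No match overlapped another in these windows. The 3 that rose most were Cox6b1 (chr7:30626065-30626364, minus strand), Ndufa5 (chr6:24527477-24527776, minus strand) and Ndufa3 (chr7:3617123-3617422, plus strand), and of those that fell most Cox7b2 (chr5:71548156-71548455, minus strand) and Cox6b2 (chr7:4753045-4753344, minus strand) are given; Ndufa4l2 is named only:
Cox6b1: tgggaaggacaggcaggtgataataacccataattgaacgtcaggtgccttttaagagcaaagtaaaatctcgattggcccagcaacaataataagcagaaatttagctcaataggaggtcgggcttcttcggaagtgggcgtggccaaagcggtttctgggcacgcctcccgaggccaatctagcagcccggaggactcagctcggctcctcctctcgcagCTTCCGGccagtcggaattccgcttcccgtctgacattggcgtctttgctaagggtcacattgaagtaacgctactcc
Ndufa5: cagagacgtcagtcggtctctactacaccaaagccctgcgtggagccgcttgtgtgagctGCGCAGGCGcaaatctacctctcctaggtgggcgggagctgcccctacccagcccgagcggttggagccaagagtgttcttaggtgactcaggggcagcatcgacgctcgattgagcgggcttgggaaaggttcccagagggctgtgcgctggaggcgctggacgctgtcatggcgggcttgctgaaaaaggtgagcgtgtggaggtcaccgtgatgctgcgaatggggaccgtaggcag
Ndufa3: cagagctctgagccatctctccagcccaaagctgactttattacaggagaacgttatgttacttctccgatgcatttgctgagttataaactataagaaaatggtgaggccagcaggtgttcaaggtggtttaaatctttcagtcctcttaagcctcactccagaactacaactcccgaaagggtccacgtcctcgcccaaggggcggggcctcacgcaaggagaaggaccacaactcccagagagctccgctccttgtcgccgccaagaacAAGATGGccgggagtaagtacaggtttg
Cox7b2: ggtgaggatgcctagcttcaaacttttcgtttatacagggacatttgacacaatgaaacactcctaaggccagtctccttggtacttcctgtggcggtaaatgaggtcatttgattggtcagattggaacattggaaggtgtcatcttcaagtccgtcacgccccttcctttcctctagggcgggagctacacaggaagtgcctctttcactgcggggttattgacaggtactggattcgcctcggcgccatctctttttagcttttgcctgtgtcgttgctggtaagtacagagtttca
Cox6b2: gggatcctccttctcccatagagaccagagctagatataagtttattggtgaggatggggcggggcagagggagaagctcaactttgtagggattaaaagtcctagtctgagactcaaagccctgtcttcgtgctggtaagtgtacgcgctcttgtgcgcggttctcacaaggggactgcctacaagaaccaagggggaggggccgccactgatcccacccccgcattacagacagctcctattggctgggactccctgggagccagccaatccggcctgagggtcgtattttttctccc
Cox6b1 held 1 ETS match, Ndufa5 1 NRF1 match and Ndufa3 1 YY1 match, and none of these letters occurred in the windows of Cox7b2 and Cox6b2. Of 64 nuclear subunit genes with a window, 17 (26.6%) held the NRF1 letters, 13 (20.3%) the ETS letters and 9 (14.1%) the YY1 letters. Over all 27025 windows the shares were 6.47%, 9.12% and 6.48%. These are matches of letters, not measured binding, and whether they bear on the levels was not tested. NRF1, GABPA and YY1 are known as regulators of nuclear-encoded mitochondrial genes. The genes of GABPA and its partner were themselves lower in PDGFRa-only than in PECAM1-only. Gabpa was at a mean of 167 against 366 CPM (log2 fold change -1.13 ± 0.15 SE, adjusted p = 2.04e-06). Gabpb1 was at 50.1 against 76.2 CPM (log2 fold change -0.61 ± 0.17 SE, adjusted p = 0.00425). Over all tested genes 28.8% were called lower and 30.1% higher in this comparison. Of 8 tested transcription factors and coactivators of respiratory genes, Gabpa, Gabpb1 and Esrrb were called lower (37.5%), 0 higher and 5 not called. A link between their levels and the motif matches was not tested.

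Isoform genes of complex IV moved in opposite directions. Cox6b2, known as the testis form of Cox6b1, was at 10.3 and 7.38 CPM in PDGFRa-only, 14.9 and 12.3 in double-positive and 23.4 and 32.1 in PECAM1-only (log2 fold change -1.67 ± 0.26 SE, adjusted p = 1.17e-05). Per length, Cox6b2 made up 64.7% and 61.1% of the 2 isoforms in PECAM1-only, 29.6% and 27.9% in double-positive and 12.6% and 12.8% in PDGFRa-only. These shares are taken within a library and do not depend on how libraries are scaled, but their size depends on the length used, here the longest coding transcript. By the length of all exons merged, which is longer for Cox6b2, they were 42.5% and 38.9%, 14.5% and 13.6%, and 5.49% and 5.59%, and raw counts with no length gave 53.7% and 49.9% in PECAM1-only (both chosen after seeing the data). The order of the fractions was the same in all 3, while which isoform was the major one in PECAM1-only was not settled.

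Cox7b2, the testis form of Cox7b, showed the same order at lower levels. It was at 1.79 and 0.452 CPM in PDGFRa-only, 4.39 and 2.96 in double-positive and 9.58 and 9.38 in PECAM1-only (log2 fold change -3.20 ± 0.48 SE, adjusted p = 6.66e-06), and its raw counts of 8 and 3 in PDGFRa-only make that level imprecise. Its share of Cox7b and Cox7b2 per length was 25.9% and 22.2% in PECAM1-only, 12.1% and 8.08% in double-positive and 4.15% and 1.04% in PDGFRa-only. Cox7b, the widely expressed form, was at 76.3 and 79.5, 59.2 and 62.3 and 50.7 and 60.7 CPM. Cox8c, another testis form, had 5 and 6 counts in PECAM1-only and 0 in the 4 other libraries, at least 3.07-fold lower in PDGFRa-only and at least 3.53-fold lower in double-positive against a floor of 3 counts over a fraction (counting error only); it was too low to be tested. Its counterpart Cox8a was at 120 and 80.6 CPM in PDGFRa-only, 59.2 and 63.2 in double-positive and 35.9 and 52.9 in PECAM1-only.

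Ndufa4l2, a gene known to respond to hypoxia, had the largest fall of any member. It was at 0.448 and 0.301 CPM in PDGFRa-only, 2.51 and 5.93 in double-positive and 5.23 and 11.6 in PECAM1-only (log2 fold change -4.46 ± 0.66 SE, adjusted p = 6.32e-06), from raw counts of 2 and 2, 16 and 38, and 36 and 74. Its paralogue Ndufa4 was at 128 and 115, 70.8 and 74.1 and 50.1 and 60.2 CPM (log2 fold change 1.14 ± 0.17 SE, adjusted p = 6.92e-06). Ndufa4l2 was 4.81% and 8.51% of the pair per length in PECAM1-only and at most 0.169% in PDGFRa-only, and by all exons merged 11.6% and 19.5% and at most 0.438%. It was also lower in PDGFRa-only than in double-positive (log2 fold change -3.48 ± 0.72 SE, adjusted p = 0.00192).

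Of the other isoform sets, Cox4i2 made up 0.189% to 0.409% of the subunit 4 genes per length in every library, and Cox7a1, the heart and muscle form, was at 1.34 and 0.904, 1.41 and 2.65 and 1.31 and 1.72 CPM and did not pass. The share of Cox7a1 in the Cox7a genes per length was 1.61% and 1.21% in PDGFRa-only, 2.80% and 5.60% in double-positive and 3.94% and 4.34% in PECAM1-only. Cox7a2l, which takes part in supercomplex assembly, was 27.5% and 25.6% of the Cox7a genes per length in PDGFRa-only, 29.8% and 28.0% in double-positive and 37.4% and 40.5% in PECAM1-only.

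Beside the members, other genes of the chain with a testis form were read from lists of pathway genes. Cyct, the testis cytochrome c, had raw counts of 5 and 2 in PDGFRa-only, 15 and 15 in double-positive and 67 and 58 in PECAM1-only (log2 fold change -3.84 ± 0.50 SE, adjusted p = 1.10e-06). The somatic gene Cycs had 47 counts over all libraries and was not tested. Neither gene was searched for sequence shared with copies, so the level of Cycs against Cyct is uncertain. The germ cell ADP/ATP carrier Slc25a31 was at a mean of 2.88 CPM in PDGFRa-only, 7.51 in double-positive and 17.7 in PECAM1-only (log2 fold change -2.76 ± 0.45 SE, adjusted p = 4.25e-05), while the heart and muscle carrier Slc25a4 was at 631, 487 and 169 CPM (log2 fold change 1.90 ± 0.16 SE, adjusted p = 1.58e-09).

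**Figure D3:**
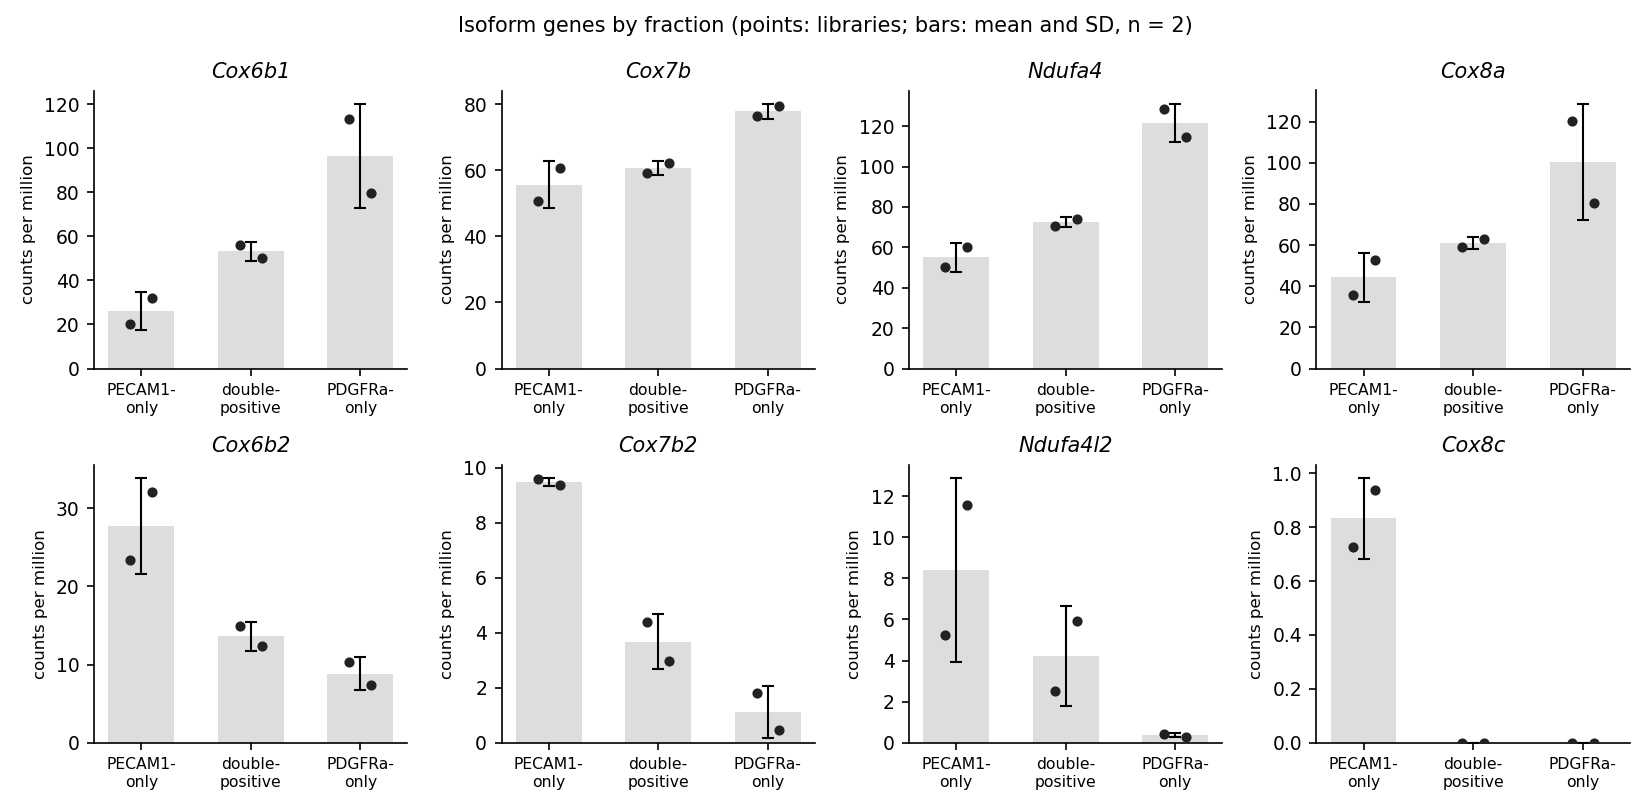
Levels in CPM of 4 isoform pairs by fraction; points are libraries, grey bars the mean and error bars the SD (n = 2), with a separate axis for each gene. Cox6b1, Cox7b, Ndufa4 and Cox8a (upper row) had their highest mean in PDGFRa-only, and Cox6b2, Cox7b2, Ndufa4l2 and Cox8c (lower row) in PECAM1-only.

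Between double-positive and PECAM1-only cells 9 of 89 members were called higher (10.1%) and 3 lower, beside 21.8% and 16.4% of all genes (38.2% called in all), so the members' shares were below the background. The median log2 fold change was 0.18 over the members and -0.01 over all genes. Among the 75 nuclear subunits the 6 called higher were Cox6b1 (log2 fold change 1.03 ± 0.22 SE, adjusted p = 9.54e-04), Cox6a1, Cox7a2, Ndufa8, Atp5d and Atp5j, and the 2 called lower were Cox7b2 (log2 fold change -1.36 ± 0.37 SE, adjusted p = 0.00613) and Cox6b2 (log2 fold change -1.02 ± 0.24 SE, adjusted p = 0.00199). Complex III had 0 of 8 called by edgeR and 2 of 8 at an unadjusted p under 0.05, with 0 by DESeq2. Scaling by library size alone ended the calls of Cox7a2, Ndufa8, Atp5d and Atp5j, at 0.45, 0.45, 0.35 and 0.21, and leaving out 1 library at a time gave 4 members called higher (without PECAM1-only replicate 1) to 18 (without PDGFRa-only replicate 1).

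Between PDGFRa-only and double-positive cells 27 members were called higher (30.3%) and 2 lower, beside 5.94% and 11.7% of all genes (17.6% called in all). The median log2 fold change was 0.33 over the members and 0.00 over all genes. All 27 were nuclear subunits: 11 of 37 in complex I, 4 of 8 in complex III, 8 of 14 in complex IV and 4 of 16 in complex V. Ndufa3 (log2 fold change 1.30 ± 0.24 SE, adjusted p = 6.58e-04), Atp5j2 (log2 fold change 0.96 ± 0.22 SE, adjusted p = 0.00453), Uqcr11 (log2 fold change 0.93 ± 0.20 SE, adjusted p = 0.00256) and Uqcrq (log2 fold change 0.92 ± 0.19 SE, adjusted p = 0.00190) rose most, and Ndufa4l2 and Cox7b2 (log2 fold change -1.84 ± 0.53 SE, adjusted p = 0.0200) fell. Leaving out double-positive replicate 1 or 2 left 14 and 10 members called higher, and leaving out PDGFRa-only replicate 1 left 16, so the number is loosely set by 2 libraries a fraction. On the deposited RPKM values (limma, pseudocounts 1 and 0.1) 4 and 6 were called higher and 0 and 1 lower.

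Of the 42 nuclear subunits higher in PDGFRa-only than in PECAM1-only, 38 had their double-positive mean between those of the other fractions. Of these 42, 27 were also higher in PDGFRa-only than in double-positive, 6 were also higher in double-positive than in PECAM1-only, 4 of these in both, and 13 in neither. Over all tested genes 5.94% were called higher in PDGFRa-only than in double-positive and 21.8% in double-positive than in PECAM1-only. The step counts were not made for all genes called higher in PDGFRa-only than in PECAM1-only. They are therefore not shown to be particular to these subunits. The 3 comparisons share libraries, and these counts are a description. The difference between the steps was not tested. The counts of all members also moved with the libraries and values used: without PDGFRa-only replicate 1, 16 were higher in PDGFRa-only than in double-positive and 18 in double-positive than in PECAM1-only, and on the RPKM values with pseudocount 1 there were 4 in each.

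Mitochondrially encoded genes were lowest on average in PECAM1-only. All 7 tested genes had a higher mean in PDGFRa-only than in PECAM1-only and in double-positive than in PECAM1-only, and 4 and 3 of them were called higher, beside 30.1% and 21.8% of all genes. Over all 13909 tested genes, 6986 and 6886 had a positive log2 fold change in these 2 comparisons. Of the 7, 0 were called, beside 17.6% of all genes, between PDGFRa-only and double-positive (log2 fold changes from -0.18 to 0.22 (edgeR), with 0 at an unadjusted p under 0.05 and 0 by DESeq2). Their median log2 fold change was 0.58 in the first comparison, 0.48 in the second and -0.09 in the third, where the nuclear subunits had 0.60, 0.13 and 0.42. In 3 of the 7, mt-Nd1, mt-Nd4 and mt-Cytb, the double-positive mean lay between those of the other fractions. Whether the nuclear and mitochondrial sets differ in this was not tested.

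By gene, mt-Nd6, the only member read from the light strand, was at 132 and 166 CPM in PDGFRa-only, 164 and 175 in double-positive and 66.6 and 106 in PECAM1-only (log2 fold change 0.79 ± 0.19 SE, adjusted p = 0.00146). The strand setting of the counting is not given, so its reads cannot be told apart from antisense RNA of the heavy strand. mt-Nd1 was at 1393 and 1267, 1359 and 1260 and 643 and 1066 CPM (log2 fold change 0.64 ± 0.19 SE, adjusted p = 0.00775), and mt-Nd5 at 1163 and 1409, 1342 and 1388 and 636 and 1091 CPM (log2 fold change 0.58 ± 0.20 SE, adjusted p = 0.0194). In all 3 genes PECAM1-only replicate 1 was the lowest library by far. mt-Nd4 was at 669 and 433, 483 and 465 and 252 and 430 CPM (log2 fold change 0.69 ± 0.23 SE, adjusted p = 0.0142). mt-Co1, at 4090 and 6272, 5502 and 5965 and 3552 and 4689 CPM, mt-Cytb, at 2591 and 1599, 2038 and 1781 and 1258 and 1831, and mt-Nd2, at 311 and 294, 342 and 320 and 170 and 304, did not pass in any comparison.

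The calls depended on single libraries. Without PECAM1-only replicate 1 none of the 4 genes was called between PDGFRa-only and PECAM1-only, with log2 fold changes of 0.51 for mt-Nd6, 0.38 for mt-Nd4, 0.34 for mt-Nd1 and 0.25 for mt-Nd5. The call of mt-Nd4 was also lost without PDGFRa-only replicate 1 (0.36) and that of mt-Nd5 without PDGFRa-only replicate 2 (0.44). Between double-positive and PECAM1-only, mt-Nd1 and mt-Nd5 lost their calls without PECAM1-only replicate 1 (0.32 and 0.35), mt-Nd1 without double-positive replicate 1 (0.59) and mt-Nd5 without double-positive replicate 2 (0.64). With PECAM1-only replicate 2 left out, mt-Nd2 was called in both comparisons (0.84 and 0.98) and mt-Nd4 in the second (0.93). Scaling by library size alone ended the calls of mt-Nd1, mt-Nd4 and mt-Nd5 between PDGFRa-only and PECAM1-only, with values of 0.35, 0.41 and 0.29, while it moved the median of all genes to -0.28. The mitochondrial 12S rRNA mt-Rnr1 was higher in PDGFRa-only as well (log2 fold change 0.61 ± 0.18 SE, adjusted p = 0.00748), and the 16S rRNA mt-Rnr2, which took 12.8% to 17.9% of all counts, did not pass (log2 fold change 0.19 ± 0.20 SE, adjusted p = 0.428).

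Summed over members, mitochondrial transcripts made up 10350 and 11440 CPM in PDGFRa-only, 11229 and 11355 in double-positive and 6576 and 9517 in PECAM1-only. The TMM factors of these libraries, in the same order, were 0.929 and 0.913, 0.970 and 0.966, and 1.12 and 1.12. Without this scaling, mitochondrial members made up 0.961% and 1.04% of all counts in PDGFRa-only and 1.09% and 1.10% in double-positive. In PECAM1-only they made up 0.737% and 1.07%, so PECAM1-only overlapped with PDGFRa-only. The ratio of mitochondrial to nuclear subunit counts was 1.28 and 1.19 in PDGFRa-only, 1.34 and 1.38 in double-positive and 0.811 and 1.08 in PECAM1-only. The fractions do not overlap in this ratio, but it is carried by mt-Co1 and Atp5b: without these, it was 1.03 and 0.911, 1.24 and 1.26, and 0.772 and 1.10, and PDGFRa-only overlapped with PECAM1-only. An exact two-sided permutation test of 2 libraries against 2 cannot go below p = 0.333, and no other test of the ratio was run.

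The summed nuclear level depended on Atp5b, the most abundant nuclear member. With it, the sum was 8109 and 9614 CPM in PDGFRa-only, 8368 and 8253 in double-positive and 8113 and 8831 in PECAM1-only, and the fractions overlapped. Without Atp5b it was 6081 and 5671, 4629 and 4278, and 3917 and 4379 CPM, and PDGFRa-only lay above both others. The sum with Atp5b also depended on scaling. Without TMM it was 0.753% and 0.877% of all counts in PDGFRa-only and 0.812% and 0.797% in double-positive. In PECAM1-only it was 0.909% and 0.992%, above both other fractions. By complex, the sum in PDGFRa-only against PECAM1-only was 1849 ± 27.8 against 1427 ± 86.8 CPM in complex I (SD, n = 2), 734 ± 70.3 against 453 ± 46.4 in complex III, 1227 ± 130 against 712 ± 114 in complex IV and 2067 ± 62.1 against 1556 ± 79.6 in complex V without Atp5b.

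**Figure D4:**
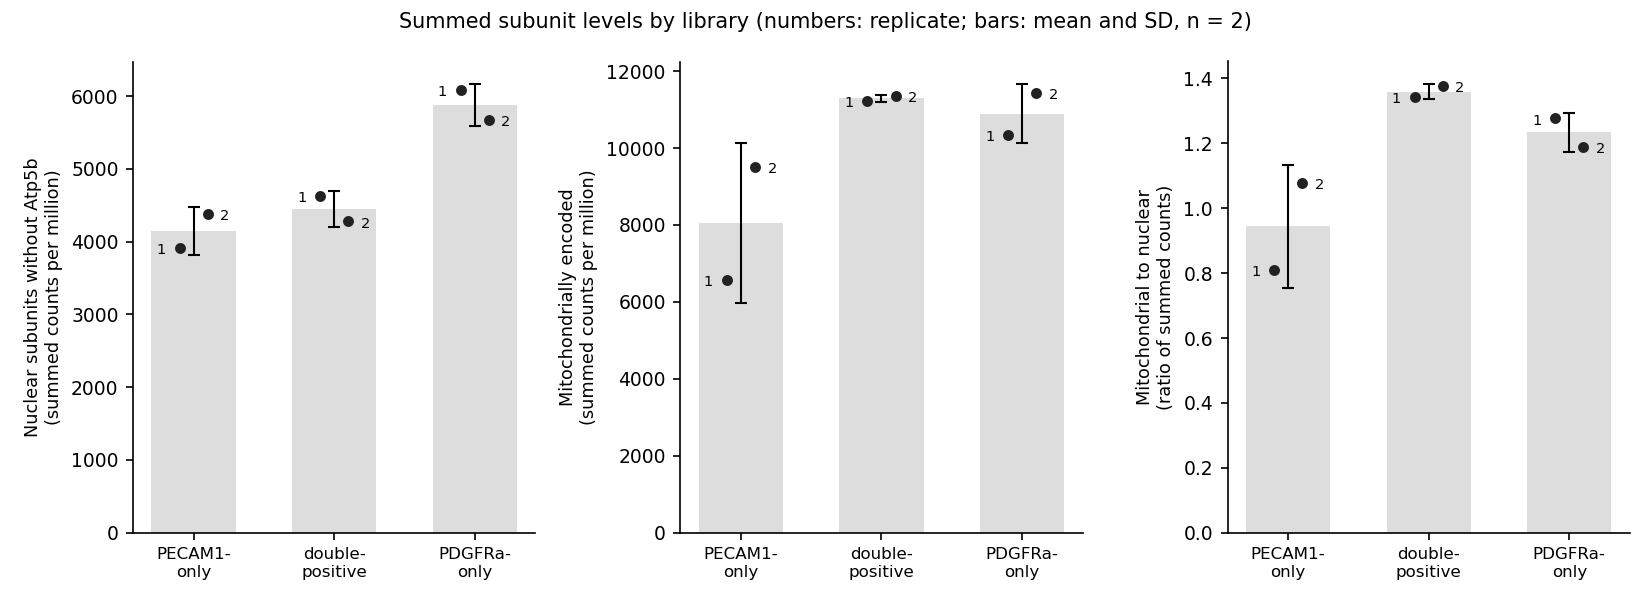
Summed CPM of nuclear subunits without Atp5b (left) and of mitochondrially encoded members (middle), and the ratio of mitochondrial to nuclear summed counts (right), by fraction; points are libraries labelled by replicate, bars the mean and error bars the SD (n = 2). The nuclear sum is highest in PDGFRa-only (5671 and 6081), and PECAM1-only replicate 1 is lowest in the mitochondrial sum (6576) and in the ratio (0.811).

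Transcript length moved with these differences. Most members are short, and the 38 tested members of up to 700 bases had a median difference of 0.83 on the log2 scale in PDGFRa-only against PECAM1-only, with 63.2% called higher, against 0.11 and 24.0% in 1090 other genes of that length. At 701 to 1000 bases the members' median was 0.77 (17 genes, others 0.15), at 1001 to 1500 bases 0.38 (18 genes, others 0.12) and above 1500 bases 0.20 (16 genes, others -0.05). Between PDGFRa-only and double-positive the members' medians in the same order were 0.58, 0.58, 0.15 and 0.11, and those of the other genes 0.12, 0.11, 0.08 and -0.04. In these 2 comparisons the members' median lay above that of other genes in each range of length. The share called did not: above 1500 bases 25% of members were called higher against 30.6% of the other genes in the first comparison, and 0.0% (0 of 16) against 5.29% between PDGFRa-only and double-positive. The part of length in the members' differences was not tested.

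**Figure D5:**
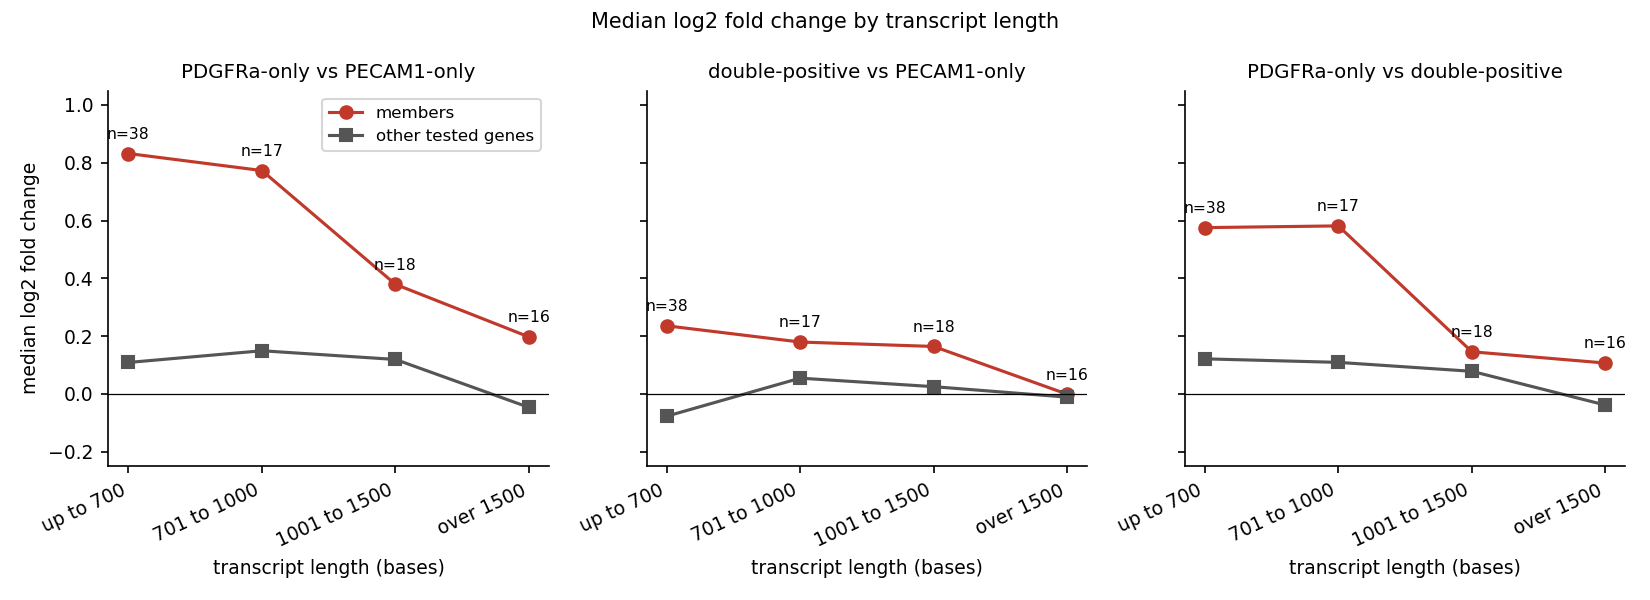
Median log2 fold change by transcript length (bases, longest coding transcript) for tested members (red circles, n beside each) and all other tested genes (grey squares) in 3 comparisons. In PDGFRa-only against PECAM1-only the members fall from 0.83 at up to 700 bases to 0.20 above 1500 bases, and the other genes from 0.11 to -0.05.

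Other genes of the pathway were read from lists of known members. Between PDGFRa-only and PECAM1-only 30.1% of all tested genes rose and 28.8% fell. Of the 4 subunits of complex II, which feeds electrons from succinate, the 2 membrane anchors rose in PDGFRa-only against PECAM1-only, Sdhd from a mean of 106 to 291 CPM (log2 fold change 1.46 ± 0.17 SE, adjusted p = 2.81e-07) and Sdhc from 65.0 to 118 (log2 fold change 0.86 ± 0.18 SE, adjusted p = 3.83e-04). The catalytic subunit genes Sdha (log2 fold change 0.01 ± 0.16 SE, adjusted p = 0.976) and Sdhb (log2 fold change -0.07 ± 0.20 SE, adjusted p = 0.783) did not pass. Of 15 tested complex IV assembly genes 7 rose and 0 fell, Cox14 (log2 fold change 1.72 ± 0.27 SE, adjusted p = 1.53e-05) and Surf1 (log2 fold change 1.49 ± 0.24 SE, adjusted p = 2.10e-05) with the smallest p. Of 6 genes that assemble, inhibit or join complex V 4 rose, among them Atpif1, the inhibitor of ATP hydrolysis, at a mean of 60.8 against 34.4 CPM (log2 fold change 0.81 ± 0.21 SE, adjusted p = 0.00221). Of 8 tested complex I assembly genes outside the Nduf names, Lyrm2 rose and Nubpl fell (12.5% each). Of 4 for complex III, Uqcc rose and Lyrm7 fell (25% each), and both complex II assembly genes tested rose. The shares that rose were 46.7% for complex IV assembly and 66.7% for the complex V list, above the share of all genes. Those for complex I and III assembly were below it, and all these lists are short.

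Of 72 tested mitochondrial ribosomal protein genes 25 rose (34.7%) and 6 fell, with a median log2 fold change of 0.27; the share that rose is near the 30.1% of all genes, and the share that fell, 8.33%, is below their 28.8%. Of 14 genes of mitochondrial DNA replication and transcription 3 rose (21.4%) and 4 fell (28.6%), beside 30.1% and 28.8% of all genes: Top1mt, the mitochondrial topoisomerase, rose from a mean of 6.30 to 29.6 CPM (log2 fold change 2.22 ± 0.24 SE, adjusted p = 1.15e-07), and Mgme1, an exonuclease of mitochondrial DNA, fell from 41.6 to 19.1 (log2 fold change -1.11 ± 0.21 SE, adjusted p = 1.23e-04). Of 16 genes of mitochondrial RNA processing and stability 4 rose (25%) and 3 fell (18.8%), Pnpt1, the mitochondrial polynucleotide phosphorylase, from 29.4 to 93.0 CPM (log2 fold change 1.65 ± 0.21 SE, adjusted p = 8.19e-07). Of 8 tested transcription factors and coactivators of respiratory genes 0 rose and 3 fell, Esrrb (log2 fold change -2.93 ± 0.22 SE, adjusted p = 4.01e-10), which is also a pluripotency factor, Gabpa and Gabpb1; at an unadjusted p under 0.05, and by DESeq2, 0 rose as well.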

How the data were processed

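The deposited raw counts per gene of 6 libraries were used as the authors gave them; the deposited RPKM values, per the file headers normalized by the authors in a way not given in the sources used here, served only as an alternative, as log2(RPKM + 1) and log2(RPKM + 0.1) with limma. The submitters' processing notes name TopHat2 2.0.8b, Bowtie2 2.1.0, cutadapt 1.2.1, HTSeq 0.5.4p3 and the build GRCm38, with no roles; the annotation release, strand setting and treatment of reads with several matches are not given in the sources used here. Amplification before library preparation means that counts are not independent molecules.

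Counts were tested with edgeR 4.0.16 in R 4.3.3 (quasi-likelihood, robust; TMM scaling; filterByExpr with a minimum count of 10; 1 mean per fraction over all 6 libraries; two-sided; Benjamini-Hochberg over all 13909 genes tested), which gave the log2 fold changes, SE and adjusted p. A call is an adjusted p below 0.05, and rose or fell means called. CPM are TMM-scaled. With 2 libraries a fraction the residual degrees of freedom were 3, and the biological coefficient of variation was 13.5%. Replicates of a fraction differed by more than sampling noise, and those of PDGFRa-only most. Chi-square per degree of freedom was 28.4 in PDGFRa-only, 6.08 in PECAM1-only and 5.81 in double-positive. On simulated counts for PDGFRa-only against PECAM1-only (13909 genes) the fit recovered 56% of 100 genes changed by 1 log2 unit and 93% of 100 changed by 2. It made 10 false calls among the unchanged genes. Only these genes were changed, with trended dispersions, while 59% of genes were called in the data. The adjusted p is stricter where few genes change, so these shares are not the sensitivity in the data.

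Transcript lengths and 50-base stretches came from the longest coding transcript in GENCODE M21, with length ranges chosen after seeing the data. Alternatives used limma 3.58.1, DESeq2 1.42.0 and edgeR with other scalings, filters and library sets; sequence work and plots used Python 3.11.15 with matplotlib 3.10.9. Named were, in each complex and comparison, the called members that rose or fell most, up to 3 each, at a mean of at least 5 CPM, all mitochondrial genes, the isoform sets and the 2 smallest p of each pathway list; others were chosen for their role after their values were seen. Members and lists were chosen with earlier results of these data known. Protein sequences are not used here.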

Additional observations from a re-analysis of the deposited data

How the results depend on the processing

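Of PDGFRa-only against PECAM1-only, members called higher numbered 28 with library size alone, 30 on both RPKM scales and 31 without members sharing over 10% of their 50-base stretches (chosen after seeing the data); called lower were 9, 8 and 8 with library size alone and on the RPKM scales. The median of 0.49 moved to 0.28 with upper-quartile scaling, 0.20 with library size alone and 0.29 and 0.31 on the RPKM scales, where the first 2 moved the median of all genes to -0.20 and -0.28. Leaving out 1 library at a time gave 32 to 49 called higher, 3 to 6 lower (3 without PECAM1-only replicate 1) and medians of 0.40 to 0.67.

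Of double-positive against PECAM1-only, 12 calls became 21 with no count filter (16 higher, 5 lower) and 7 and 6 on the RPKM scales with pseudocounts 1 and 0.1 (4 and 3 higher). Called higher were 4 with upper-quartile scaling, 3 with library size alone (5 lower) and 15 with only the 2 fractions compared. The median of 0.18 moved to 0.00859 with upper-quartile scaling, -0.0363 with library size alone and -0.0200 and -0.0206 on the RPKM scales. Leaving out 1 library at a time gave 7 to 21 calls, 4 to 18 higher, 1 to 3 lower and medians of 0.11 to 0.27.

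Of PDGFRa-only against double-positive, 29 calls became 4 and 7 on the RPKM scales (4 and 6 higher, 0 and 1 lower), and DESeq2 called 1 lower. Leaving out 1 library at a time gave 12 to 38 calls, 10 to 34 higher, 1 to 4 lower and medians of 0.27 to 0.44. The mean mitochondrial to nuclear ratio became 0.970 in PDGFRa-only and 1.25 in double-positive without mt-Co1 and Atp5b. The cause of these moves was not tested.

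With the replicate block the calls were 52, 16 and 30 in the 3 comparisons and 12 were higher in the second. The replicate numbers were not shown to pair libraries: same-numbered libraries' deviations correlated across genes with r of -0.03, 0.13 and 0.18. No called member reversed under any alternative. RPKM were tested on their own lists of 16105 genes, 92 of them members, and depth limits members such as Ndufa4l2 and Cox7b2 to a few counts in PDGFRa-only.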

Other observations

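Some genes that serve the chain without being subunits, chosen after their values were seen, are given here for double-positive cells. Slc25a4, which exchanges ADP and ATP across the inner membrane, was higher in double-positive than in PECAM1-only cells (edgeR: log2 fold change 1.53 ± 0.16 SE, adjusted p = 9.49e-08) and did not pass between PDGFRa-only and double-positive (log2 fold change 0.37 ± 0.15 SE, adjusted p = 0.0961). The same held for Top1mt, a topoisomerase of mitochondrial DNA (log2 fold change 1.77 ± 0.25 SE, adjusted p = 6.71e-06, then log2 fold change 0.45 ± 0.22 SE, adjusted p = 0.163), and for Sdhd, an anchor of complex II (log2 fold change 1.02 ± 0.17 SE, adjusted p = 6.61e-05, then log2 fold change 0.45 ± 0.17 SE, adjusted p = 0.0703). Pnpt1, which degrades mitochondrial RNA, passed in both steps (log2 fold change 0.94 ± 0.21 SE, adjusted p = 0.00123, then log2 fold change 0.72 ± 0.20 SE, adjusted p = 0.0171). The difference between these genes and the subunits was not tested.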
